A study of Mus musculus with 16 samples.

Results

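Collagen genes were followed through 16 bulk RNA sequencing libraries. These came from the mouse ovarian cancer model HM1, grown with or without supplementation of the sugar mannose. The members are the genes whose symbol names a collagen chain (Col, the type number, a and the chain number), 44 of the 53112 symbols in the tumour tables and the same 44 of the 55290 symbols in the CD8 tables. Libraries of whole tumour tissue number 5 in the control and 5 in the mannose group. A further 3 control and 3 mannose libraries are of CD8 T cells, the cytotoxic lymphocytes of a tumour, sorted out of such tissue. All 4 groups share the HM1 tumour as their source. The labels give neither dose nor duration of mannose nor the age of the animals, and do not tell if any group received the PD-1 treatment of the series title. They do not name the animal behind each replicate either, so p-values measure only the spread between these samples, which may be technical. Levels are in TPM, transcript abundance scaled by transcript length and to a common total per library, so the levels of different genes can be set side by side within a library. The TPM tables do not give the read depth, so no error of counting can be given.

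Collagens are secreted proteins built from alpha chains that wind around each other into a triple helix. Fibrillar collagens, such as types I, III and V, pack into the fibrils of connective tissue, and the fibril-associated collagens sit on their surface. Type IV collagen forms the meshwork of basement membranes under epithelium and around vessels, type VI forms beaded filaments, and types XV and XVIII are multiplexins of basement membrane zones. In tumours fibroblasts are the best known source of fibrillar collagens, while vessel cells and carcinoma cells also make basement membrane collagens. T cells are not known as collagen producers.

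The 44 members fell into 8 classes of collagen. Only 18 of the 44 had at least 1 TPM in all 16 libraries, and 10 stayed under 1 TPM in all 16. Col9a1, a chain of the cartilage collagen type IX, was listed at 0 in every library. A mean of at least 5 TPM in any group was reached by 19 members, and these carry the results. The sum over the 44 members was 596 to 2783 TPM in control tumours, 1631 to 3423 in mannose tumours, 181 to 487 in CD8 control libraries and 953 to 1462 in CD8 mannose libraries. That sum overlapped between the groups of tumours, and it did not overlap between the groups of CD8 libraries.

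**Figure D1:**
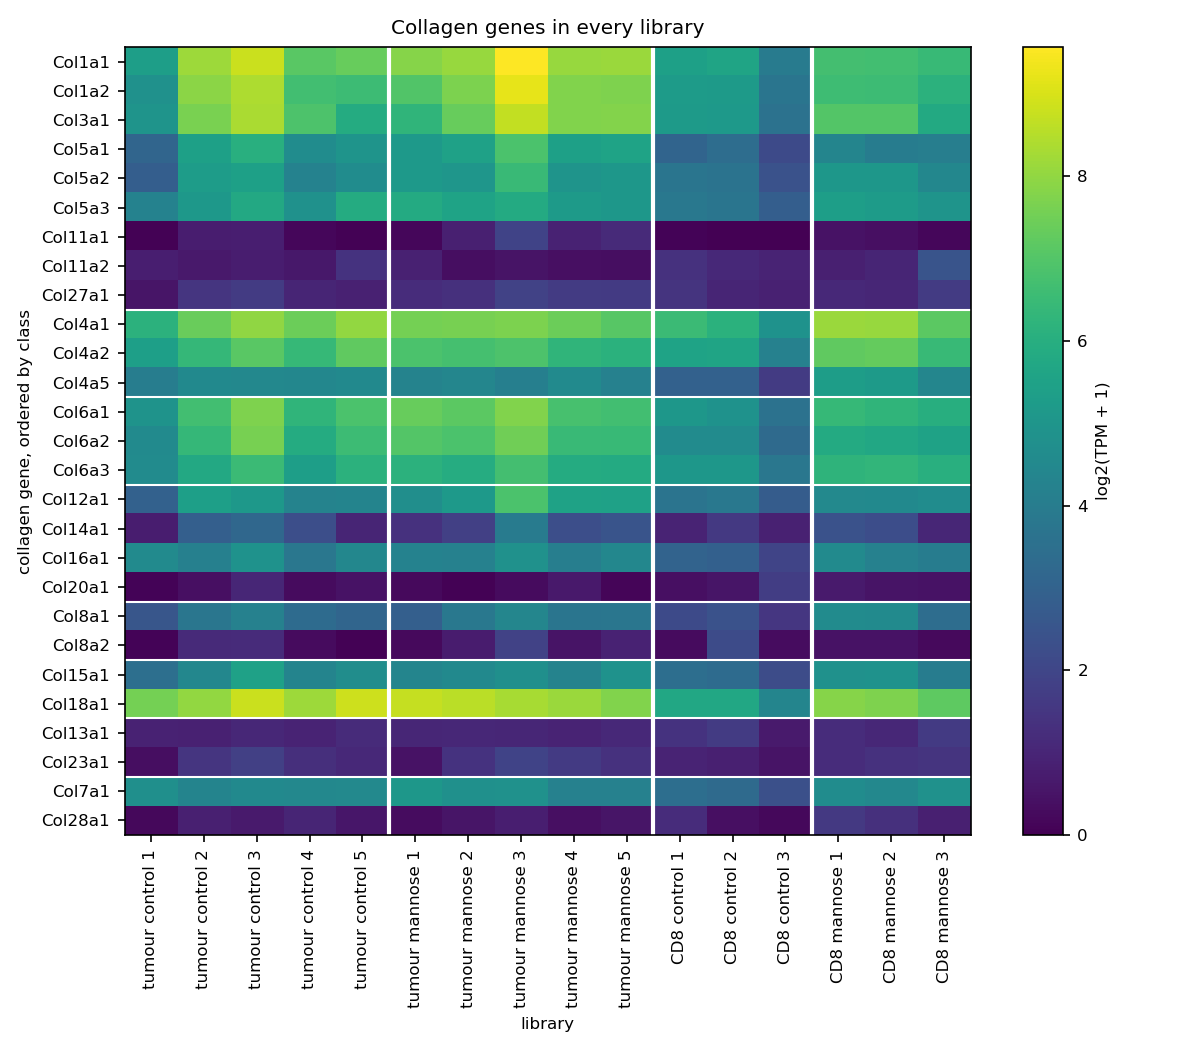
Level of each collagen gene with a mean of at least 1 TPM in any group (rows, ordered by class, with white lines between classes) in each library (columns), as log2(TPM + 1) by colour. Col1a1, Col1a2 and Col3a1 are brightest in tumour mannose 3 and dark in tumour control 1, and most collagen rows of CD8 mannose are brighter than those of CD8 control.

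Col18a1, whose protein releases the fragment endostatin, had the highest mean over the 10 tumours. It stood at 187, 258.5, 446, 284 and 462 TPM in control tumours 1 to 5 and at 423, 382, 314, 275 and 215 TPM in mannose tumours 1 to 5. The groups overlapped nearly over their whole range, with the lowest and the highest value both in control tumours.

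The type I chain Col1a1 came next, at 40.2, 285, 445, 137 and 161 TPM in the control tumours and 227, 270.4, 757, 275 and 276 TPM in the mannose tumours. Its partner Col1a2 stood at 27.3, 236, 333, 101 and 92.9 TPM in the controls and at 125, 204, 593, 215 and 209 TPM with mannose. For both chains control 1 was far below and mannose 3 far above the other tumours, and the groups overlapped. Col3a1, the type III chain that forms fibrils together with type I, stood at 29.5, 198, 324, 118 and 57.4 TPM in the controls and at 75.1, 163, 409, 216 and 218 TPM with mannose. The type V chain Col5a1, which starts and limits fibrils, was lower, at 7.67, 41.8, 64.4, 23.8 and 30.3 TPM against 35.1, 42.9, 116, 42.1 and 45.5 TPM. It had the same lowest and the same highest tumour as type I.

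Among basement membrane chains, Col4a1 stood at 69.9, 167, 251, 170 and 256 TPM in the control tumours and at 191, 196, 205, 169 and 133 TPM with mannose. Col4a2, which winds with it, stood at 41.6, 82.6, 136, 84.1 and 148 TPM against 115, 107, 117, 76.4 and 67.6 TPM. In both chains control 1 was lowest, and control 3 and control 5 lay above every mannose tumour. Col4a5 was flatter than these, at 15.5, 21.97, 20.8, 20.25 and 21.98 TPM against 18.2, 19.9, 16.5, 23.1 and 17.2 TPM. Its known partner chains Col4a3, Col4a4 and Col4a6 did not pass 0.07 TPM in any library.

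The main chains of type VI filaments were next. Col6a1 stood at 29.4, 102, 212, 75.6 and 116 TPM in the control tumours and at 159, 143, 217, 108 and 101 TPM with mannose. Col6a2 stood at 23.0, 81.1, 194, 58.0 and 94.2 TPM against 126, 116, 181, 88.0 and 86.9 TPM. Col6a3, the longest chain of the type VI filament, stood at 23.4, 53.0, 91.9, 40.6 and 70.7 TPM against 70.7, 60.3, 102, 58.7 and 57.2 TPM. In each of the 3 chains control 1 was lowest, and control 3 and mannose 3 were the 2 highest tumours.

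Collagens differed in how far they spread between tumours, whatever the group. Of the 22 members with enough signal to be tested, 11 ranged more than 5-fold between the lowest and the highest tumour and 3 less than 2-fold. The widest ranges belonged to Col1a2 with 21.8-fold, Col14a1 with 20.7-fold, Col1a1 with 18.8-fold and Col12a1 with 16.5-fold. Col12a1 and Col14a1 belong to the fibril-associated class. The narrowest belonged to Col4a5 with 1.49-fold, Col13a1, a transmembrane collagen, with 1.52-fold and Col7a1, which makes the anchoring fibrils under epithelium, with 1.85-fold. Control 1 was the lowest tumour for 19 of the 22 members, and mannose 3 the highest for 12. Control 1 also stood apart over all genes, with a mean Pearson correlation of 0.947 with the other tumours on log2(TPM + 1), the lowest of the 10. Types I and III together made up 16.3% of the collagen TPM in control 1 and 51.4% in mannose 3, while Col18a1 alone made up 31.4% and 9.18%. Markers of several cell types had the same lowest and highest of the 10 tumours. In control 1 and mannose 3 the sum was 59.6 and 448 TPM for fibroblast markers without Thy1, which T cells also express, and 78.7 and 536 TPM for smooth muscle and pericyte markers. It was 1377 and 3795 TPM for macrophage markers and 5.55 and 79.3 TPM for T cell markers. The part of these cells in the collagen ranges was not tested, and in bulk tissue fewer cells of a type and less RNA per cell cannot be told apart.

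**Figure D2:**
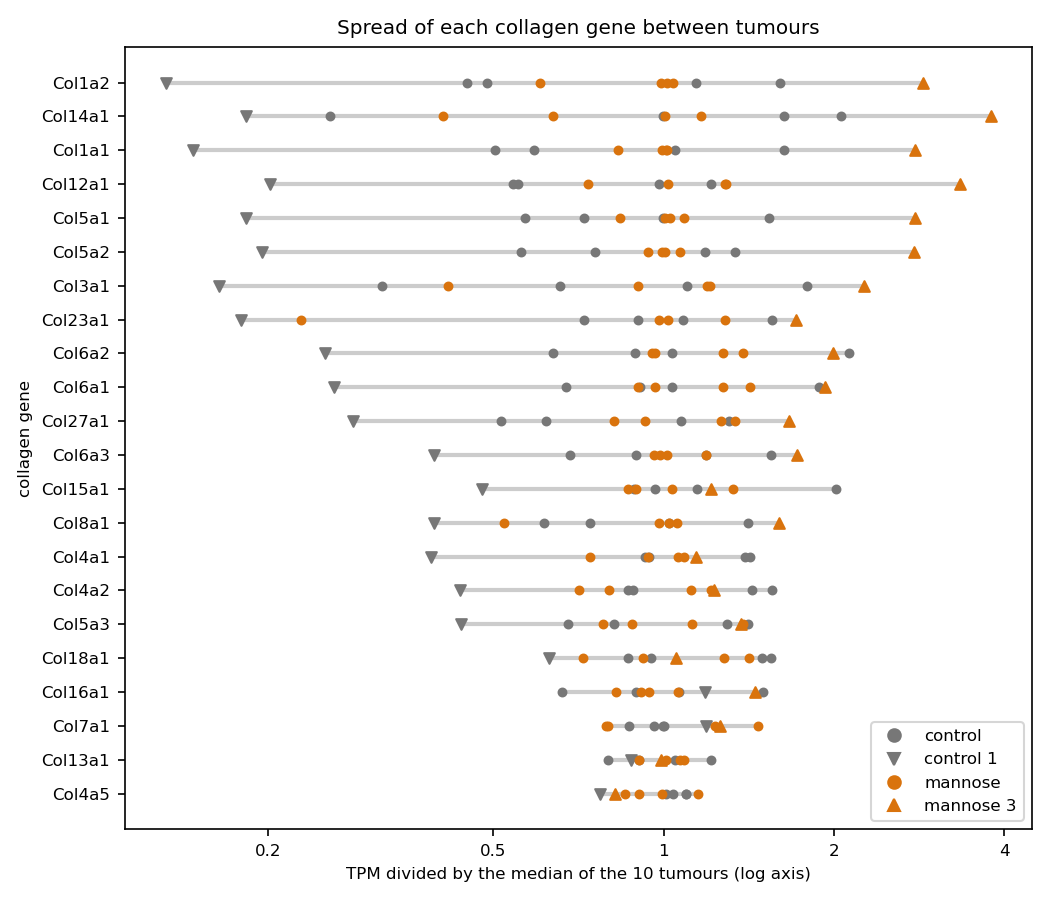
TPM of the 22 tested collagen genes in each tumour, divided by that gene's median over the 10 tumours (log axis); points are tumours, coloured by group, and genes run from the widest range at the top to the narrowest. Control 1 (triangle down) lies at the left end for 19 genes and mannose 3 (triangle up) at the right end for 12, and Col4a5 spans 1.49-fold.

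Whole tumours with and without mannose were compared to ask whether the supplement altered the matrix genes of the tissue. No collagen passed: 0 of 22 tested members differed between mannose and control at an adjusted p under 0.05 in limma's test, against 0% of all 13282 genes tested in either direction. The smallest adjusted p of a member was 0.754. At an unadjusted p under 0.05, 1 member was higher and 0 lower, against 5.53% of all genes higher and 0.693% lower. That member was Col12a1, at 6.89, 41.5, 33.5, 18.5 and 18.9 TPM in the controls and 25.1, 34.8, 114, 44.1 and 43.9 TPM with mannose, a difference of 1.12 ± 0.47 (SE) on the log2(TPM + 1) scale with an unadjusted limma p of 0.0345. The protein of Col12a1 binds the surface of type I fibrils.

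The tested members had positive differences in 20 of 22 cases, while 74.4% of all genes tested had one. Their median difference was 0.35 on the log2(TPM + 1) scale, against 0.12 over all genes. The classes were unlike in size. Over the 7 tested fibrillar members the median was 0.84, with Col1a1 at 0.99 ± 0.55 (SE), Col1a2 at 1.01 ± 0.60, Col3a1 at 0.83 ± 0.61 and Col5a2 at 0.84 ± 0.46. Type VI chains had a median of 0.65, with Col6a1 at 0.65 ± 0.42. The type IV chains had a median of 0.07 and the multiplexins of 0.05, with Col4a1 at 0.09 ± 0.30, Col4a5 at -0.08 ± 0.13 and Col18a1 at 0.02 ± 0.26. None of these passed the test, and no tested member had all 5 mannose tumours above or below all 5 controls, against 1.51% and 0.128% of all genes.

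The tumour differences shrank without control 1 and mannose 3. These 2 tumours were picked by the same collagen values, so a smaller difference without them was built in. Without control 1 the median over the members was 0.13, against 0.02 over all genes. Without mannose 3 it was 0.20, against 0.11. Leaving out any 1 other tumour gave 0.31 (without control 5) to 0.55 (without control 3, against 0.16). Without both control 1 and mannose 3 it was 0.02, against 0.01 over all genes, and 13 of 22 differences were positive. Quantile normalization left 16 of 22 positive with a median of 0.22, against -0.005 over all genes, since it removes the general shift of all genes toward mannose. Median-ratio scaling left 14 of the 21 then tested positive, with a median of 0.30 against 0.02. Under quantile or median-ratio scaling, without control 1, or without both tumours, the sign of Col4a1, Col4a2, Col7a1, Col8a1, Col13a1, Col14a1, Col15a1, Col16a1, Col18a1 and Col23a1 turned in at least 1 case.

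**Figure D3:**
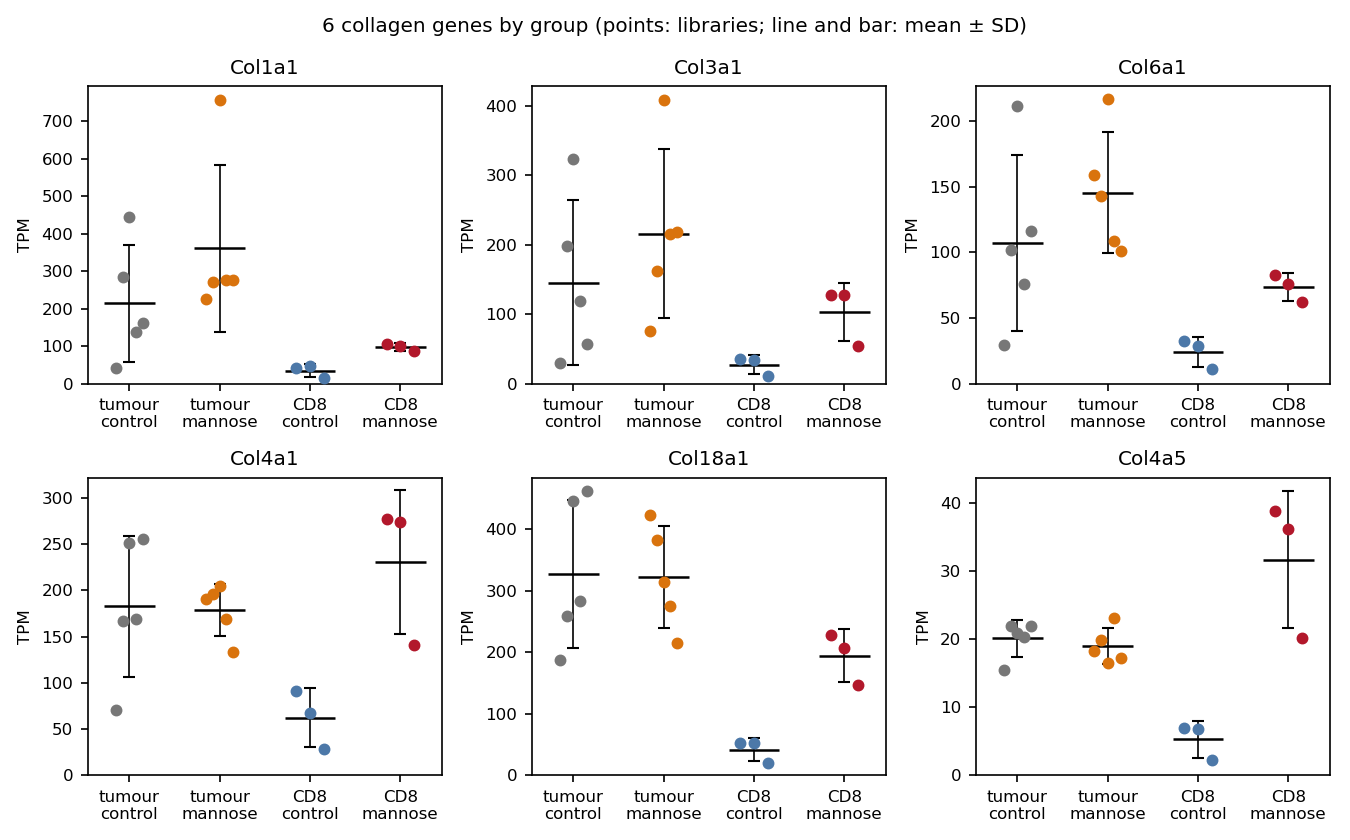
TPM of 6 collagen genes in each library by group (points), with the group mean (line) and SD (bar); the axes start at 0 and differ between panels. Tumour groups overlap in all 6 genes, while every CD8 mannose library lies above every CD8 control library.

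Genes that build, bind and cut collagen were taken from 3 lists. In tumours 0 of 27 tested genes of collagen folding, processing and crosslinking passed. Those with the smallest p were Lox, the crosslinking lysyl oxidase, at 1.03 ± 0.56 (SE), and Fkbp14, a prolyl isomerase of the endoplasmic reticulum, at 0.22 ± 0.13 on the log2(TPM + 1) scale. Among collagen receptors 0 of 9 passed, with Lair1, the inhibitory receptor of leukocytes that binds collagen, at 0.72 ± 0.30. Among collagen-degrading enzymes 0 of 7 passed, with the gelatinase Mmp9 at 0.57 ± 0.19 and the membrane protease Mmp14 at 0.43 ± 0.17. The adjusted limma p of Lox, Fkbp14, Lair1, Mmp9 and Mmp14 was 0.754 each.

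The sorted libraries were checked first against the cell type on their label. Summed T cell markers reached 3929 to 4193 TPM in CD8 control and 2019 to 3805 TPM in CD8 mannose libraries, against 5.55 to 79.3 TPM in the tumours. Markers of other cells were present as well. Macrophage markers summed to 2799 to 3295 TPM in CD8 control and 848 to 1179 TPM in CD8 mannose libraries, and carcinoma markers, chiefly Krt8, Krt18 and Krt19, to 239 to 537 TPM and 1634 to 2504 TPM. Inside the tables, the 3 CD8 control libraries carry a column name of a mannose sample, and grouping here went by the sample labels. CD8 control 1 and 2 used the T cell receptor V segments of the beta chain almost alike (Pearson r = 0.999 over 35 segments). So did CD8 mannose 1 and 2 (r = 0.995), while other pairs lay between 0.267 and 0.763. CD8 control 3 was nearest to CD8 mannose 1 and 2 (r = 0.758 and 0.763). With CD8 control 1 and 2 it stood at 0.298 and 0.309. CD8 mannose 3 stood at 0.546 and 0.529 with CD8 mannose 1 and 2. Whether libraries 1 and 2 of a group are separate samples is not stated. Most counts of called genes below are thus also given with each such pair averaged, which leaves 2 samples against 2.

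Collagen RNA was present in every CD8 library, and its level was higher with mannose. Col4a1 was highest in mean over the 6, at 91.0, 67.2 and 28.4 TPM in CD8 control 1 to 3 and 277, 274 and 141 TPM in CD8 mannose 1 to 3. Col18a1 stood at 52.9, 51.7 and 19.4 TPM against 229, 208 and 147 TPM. Neither gene overlapped between the groups, and in both control 3 was lowest. Col4a2 stood at 45.6, 47.2 and 17.4 TPM against 150, 158 and 86.7 TPM. The least abundant of the named type IV chains, Col4a5, stood at 6.88, 6.83 and 2.15 TPM against 38.8, 36.2 and 20.1 TPM. In CD8 mannose 1 and 2 Col4a5 lay above every whole tumour, where it was at most 23.1 TPM. The same held for Col4a1, at most 256 TPM in tumours, and for Col4a2, at most 148 TPM. In CD8 mannose 3 none of these chains passed its highest tumour.

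Type I and type III chains were lower than Col4a1 and Col4a2 in each CD8 library. Col1a1 stood at 42.1, 46.8 and 14.7 TPM in CD8 control and at 105, 101 and 86.0 TPM in CD8 mannose libraries. Col3a1 stood at 35.7, 33.9 and 11.03 TPM against 128, 128 and 54.7 TPM. For Col3a1 mannose 3 lay much closer to the controls than mannose 1 and 2 did, and the groups still did not overlap. Col1a2 stood at 37.5, 35.6 and 12.1 TPM against 96.3, 94.0 and 69.3 TPM, and Col5a3, a type V chain, at 13.3, 12.1 and 6.17 TPM against 39.7, 37.1 and 30.3 TPM. The groups did not overlap in either gene. The type VI chain Col6a1 stood at 32.8, 28.4 and 11.3 TPM against 82.9, 76.2 and 62.3 TPM, Col6a2 at 23.5, 23.2 and 8.91 TPM against 56.0, 52.9 and 44.1 TPM, and Col6a3 at 32.7, 32.8 and 12.7 TPM against 73.6, 76.8 and 64.5 TPM.

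The make-up of the collagen RNA differed in some parts between the CD8 groups. Types I and III together held 23.2% ± 2.10 (SD, n = 3) of the collagen TPM in CD8 control and 22.4% ± 0.364 in CD8 mannose libraries. Type IV held 27.4% ± 1.84 and 30.3% ± 3.75. Col18a1 alone held 10.9% ± 0.186 and 15.2% ± 0.510, with no overlap. The share of type VI went the other way, also with no overlap, from 18.2% ± 0.0527 in CD8 control to 15.7% ± 1.96 in CD8 mannose libraries. That drop lay mainly in CD8 mannose 1 and 2, at 14.5% each, while mannose 3, at 17.9%, was near the controls. The shares were not tested. In tumours the share of types I and III was 28.9% ± 11.7 (SD, n = 5) in controls and 38.5% ± 10.3 with mannose, and that of type IV 19.7% ± 4.40 and 14.8% ± 3.29.

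Of the 24 members tested in the CD8 libraries, 18 rose with mannose, 0 fell and 6 did not pass limma's test at an adjusted p under 0.05. Over all 14280 genes 23.2% rose and 11.7% fell, or 3306 and 1674 genes. Quantile normalization moved that split to 2673 and 2305 genes and median-ratio scaling to 2731 and 2328, and both called the same 18 members. All 24 differences were positive, against 58.1% of all genes, with a median of 1.60 on the log2(TPM + 1) scale against 0.09 over all genes. Quantile normalization left 22 of 24 positive and array weights 21 of 24, the members that turned being Col11a2, Col13a1 and Col27a1, none of them called. The 18 that rose each had at least 1 TPM in all 6 CD8 libraries, so none of them was tested only through the group where it was high. In 19 of the 24 every mannose library lay above every control, against 33.3% of all genes, and in 0 below, against 18.1%. Of the 19, Col23a1 was tested only through the mannose group. It stood at 0.41 to 0.96 TPM in CD8 control and 1.35 to 1.71 TPM in CD8 mannose libraries. Its lack of overlap was thus fixed by the filter and is no evidence. The 20 members outside the 24 were too low to be tested. Over all 44, including those, 22 had every mannose library above every control. No such share was taken over all genes without the filter, so this count has no background. The members it adds, Col2a1, Col11a1 and Col24a1, stayed under 1 TPM in each CD8 library.

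The 3 largest differences were those of Col4a5, Col18a1 and Col8a1. Col4a5 rose by 2.44 ± 0.41 (SE) on the log2(TPM + 1) scale, with an adjusted p of 0.00544. Col18a1 rose by 2.31 ± 0.39 (adjusted p = 0.00526) and Col8a1, a short-chain collagen of vessel walls and Descemet's membrane, by 2.17 ± 0.37 (adjusted p = 0.00574). The paired chains Col4a1 and Col4a2 rose by 1.96 ± 0.45 and 1.89 ± 0.41. All 3 tested type IV chains rose. The multiplexin Col15a1 rose by 1.57 ± 0.38, and with Col18a1 both members of that class passed.

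Of the 8 tested fibrillar members 6 rose: Col3a1 by 1.97 ± 0.51 (SE), Col5a3 by 1.73 ± 0.27, Col1a2 by 1.71 ± 0.41, Col1a1 by 1.62 ± 0.40, Col5a2 by 1.59 ± 0.37 and Col5a1 by 1.27 ± 0.32. The fibrillar members that did not pass were Col11a2, a chain known from cartilage, and Col27a1. The 3 tested type VI chains all rose, by 1.52 to 1.69. Fibril-associated Col16a1 rose by 1.63 ± 0.31 and Col12a1 by 1.13 ± 0.27, and Col14a1, at 0.75 ± 0.40, did not pass. Col7a1 rose by 1.63 ± 0.29. The transmembrane class had no call, with Col23a1 at 0.57 ± 0.19 and Col13a1 at 0.05 ± 0.29, and Col28a1 at 0.64 ± 0.33 did not pass either. The 6 that did not pass were all at low levels, none above 5 TPM in any CD8 library.

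The number of calls depended on CD8 mannose 1 and 2. Without CD8 mannose 1, or without CD8 mannose 2, 6 members were called, the same 6 in both cases: Col4a5, Col5a3, Col7a1, Col8a1, Col16a1 and Col18a1. They were 6 of 25 tested members without CD8 mannose 1, where 2040 of all 14697 genes rose and 1028 fell. Without CD8 mannose 2 they were 6 of 24, where 1909 of all 14685 genes rose and 894 fell. With libraries 1 and 2 of each group averaged, the calls were Col4a5, Col5a3, Col7a1 and Col18a1, while 1091 of all 14459 genes then tested rose and 561 fell. A fit of all 16 libraries called 11 of 27 tested members, while 2748 of all 15498 genes rose and 1258 fell.

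The CD8 libraries were also read for the machinery that makes collagen. Of 28 tested genes of folding, processing and crosslinking, 23 rose, 0 fell and 5 did not pass, against 23.2% and 11.7% of all genes. Their median was 1.29 on the log2(TPM + 1) scale, against 0.09 over all genes. With libraries 1 and 2 averaged 12 of 27 rose and 0 fell. Serpinh1, the chaperone that escorts procollagen, stood at 64.2, 62.1 and 22.7 TPM in CD8 control and 297, 273 and 161 TPM in CD8 mannose libraries and rose by 2.36 ± 0.43 (SE). Loxl2 and Loxl4, lysyl oxidases that crosslink collagen, rose by 2.46 ± 0.38 and 2.39 ± 0.31, and Pcolce, an enhancer of procollagen cleavage, by 2.28 ± 0.35. Among 8 tested receptors 5 rose and 1 fell, and 3 rose and 1 fell with libraries 1 and 2 averaged. The discoidin domain receptors Ddr2 and Ddr1, kinases switched on by collagen, rose by 2.38 ± 0.36 and 2.03 ± 0.26, and Itga10, an integrin chain that binds collagen, by 1.60 ± 0.20. Lair1 stood at 32.7, 25.3 and 30.1 TPM in CD8 control and 6.10, 7.01 and 7.66 TPM in CD8 mannose libraries and fell by 1.94 ± 0.14.

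Of the 7 collagen-degrading enzymes 2 rose and 2 fell, few genes to set against the 23.2% and 11.7% over all genes, and 0 rose and 2 fell with libraries 1 and 2 averaged. The collagenase Mmp8, known from neutrophils, fell by 2.31 ± 0.23 (SE) on the log2(TPM + 1) scale and Mmp9 by 1.75 ± 0.18. The gelatinase Mmp2, which fibroblasts make, rose by 1.49 ± 0.33 and cathepsin K, Ctsk, by 0.99 ± 0.20. Mmp2 did not pass without CD8 mannose 2, with an adjusted limma p of 0.0593. Mmp9 was by far the most abundant of these 4, at 758, 745 and 619 TPM in CD8 control and 276, 191 and 171.5 TPM in CD8 mannose libraries.

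Markers of several other cells moved with the collagens in the CD8 libraries. Over all genes tested 23.2% rose and 11.7% fell, and each marker list holds few genes to set against that. Of the 9 carcinoma and epithelial markers 5 were tested, and 4 rose and 1 fell. The keratin Krt8 rose by 2.42 ± 0.35 (SE) on the log2(TPM + 1) scale, Krt18 by 2.38 ± 0.37, Krt19 by 2.52 ± 0.36 and mesothelin, Msln, by 2.53 ± 0.30. Cdh1 fell by 1.33 ± 0.17, Epcam stayed under 1 TPM and Muc16 was listed at 0 in all 16 libraries. Of the 9 fibroblast markers 5 rose, among them Pdgfrb by 1.83 ± 0.43, Postn by 1.78 ± 0.35 and Dcn by 1.49 ± 0.25, and their sum without Thy1 was 24.7 to 62.5 TPM in CD8 control and 108 to 171 TPM in CD8 mannose libraries. With Thy1 that sum was 1020 to 1073 TPM and 653 to 1041 TPM. Of 6 tested smooth muscle and pericyte markers 4 rose, with Rgs5 by 2.13 ± 0.54, and of 7 endothelial markers 3 rose, with Emcn by 1.53 ± 0.46. All 7 macrophage markers fell, and of 8 T cell markers 2 fell. The differences of all 8 T cell markers were negative, with a median of -0.65. All 8 were called lower under median-ratio scaling, under array weights and without CD8 mannose 3, and 0 without any other single CD8 library. With libraries 1 and 2 averaged, 4 carcinoma markers rose and 1 fell and 7 macrophage markers fell. No fibroblast, smooth muscle and pericyte, endothelial or T cell marker passed. In that fit 1091 of all 14459 genes rose and 561 fell. Emcn lost its call in each fit that left out 1 library except that without CD8 mannose 3, with an adjusted limma p of up to 0.135. Without CD8 mannose 1, 2 fibroblast, 1 endothelial and 0 smooth muscle and pericyte markers rose, and without CD8 mannose 2 these counts were 3, 1 and 0. Over all genes 2040 of 14697 rose without CD8 mannose 1 and 1909 of 14685 without CD8 mannose 2. The summed collagens divided by the sum of Krt8, Krt18 and Krt19 gave 0.883 to 0.972 in CD8 control and 0.597 to 0.675 in CD8 mannose libraries. Relative to these keratins the collagens were lower in every CD8 mannose library than in any CD8 control. In tumours this ratio was 0.143 to 0.607 in controls and 0.458 to 1.06 with mannose, and these groups overlapped. The part of these cells in the collagen differences was not tested.

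**Figure D4:**
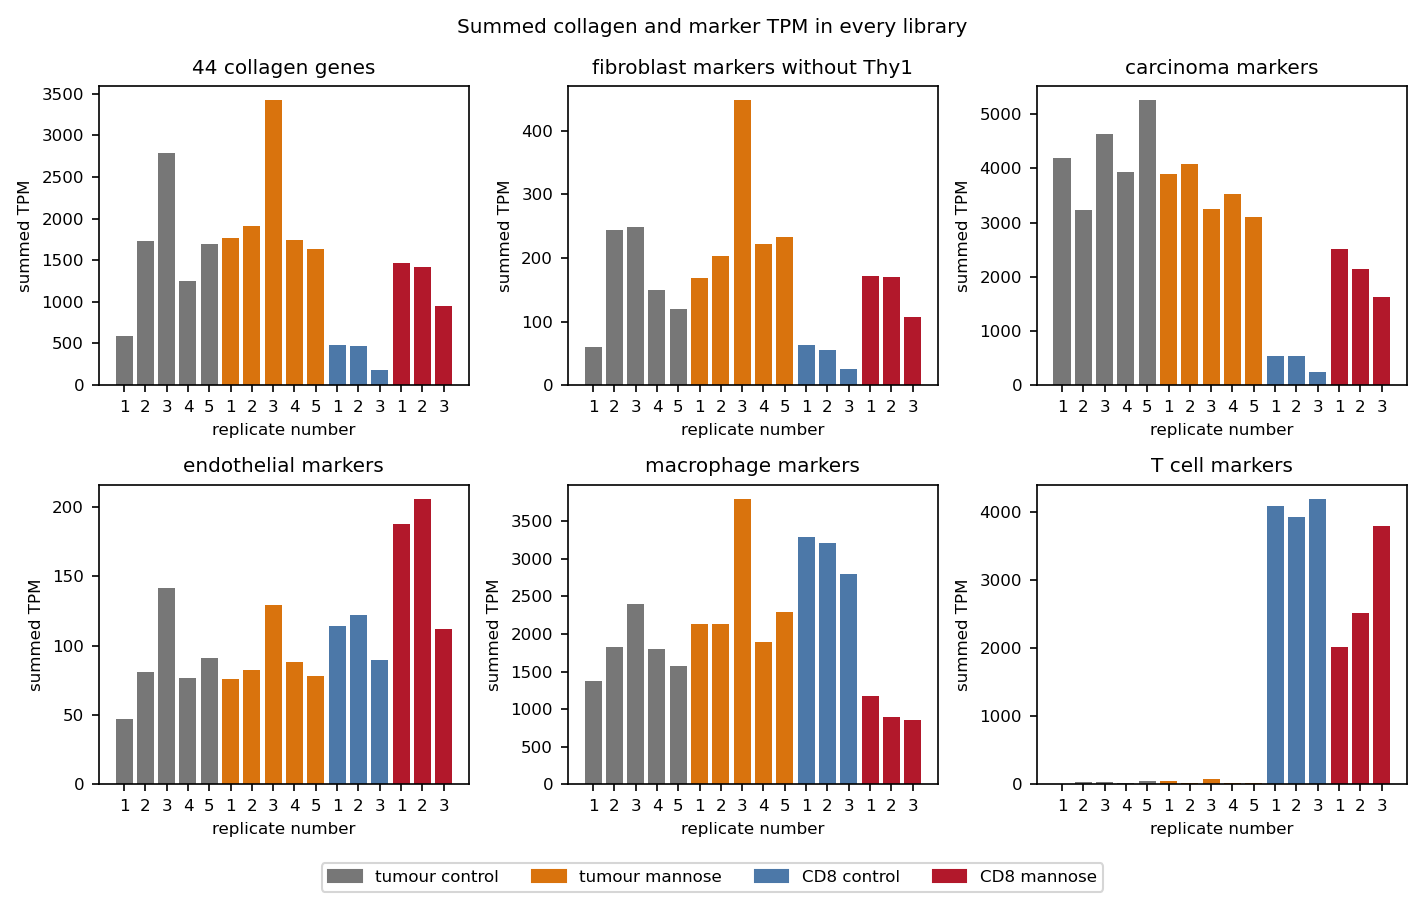
Summed TPM of the 44 collagen genes and of 5 marker lists in each library (bars from 0, numbered by replicate; scales differ between panels). In the tumours collagen, fibroblast, macrophage and T cell sums are lowest in control 1 and highest in mannose 3, and in CD8 mannose libraries collagen, carcinoma and fibroblast sums (the last without Thy1) lie above every CD8 control library while macrophage sums lie below.

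The mannose difference in the CD8 libraries was then compared with that in the tumours by an interaction term over all 16 libraries. That fit gives each gene 1 spread for both kinds of library, although the spreads were unlike. In the separate fits the SE was 0.13 in tumours and 0.41 in CD8 libraries for Col4a5, and 0.55 and 0.40 for Col1a1. The interaction SE and p can thus be too small for a gene like Col4a5. For a gene like Col1a1 they can be too large. Of 27 members tested 8 had a larger difference in the CD8 libraries and 0 a smaller one, at an adjusted limma p under 0.05. Over all 15498 genes 11% were called higher and 7.64% lower. The median over the members was 0.78 on the log2(TPM + 1) scale, against -0.0001 over all genes. Col4a5 differed most, by 2.52 ± 0.39 (SE; adjusted p = 0.000432). Col18a1 differed by 2.29 ± 0.49 (adjusted p = 0.00396), Col4a1 by 1.87 ± 0.57 (0.0319), Col8a1 by 1.85 ± 0.54 (0.0264) and Col4a2 by 1.82 ± 0.55 (0.0319). Col16a1 differed by 1.64 ± 0.38 (0.00762), Col7a1 by 1.52 ± 0.34 (0.00576) and Col5a3 by 1.39 ± 0.47 (0.0498). The 8 include all 3 tested type IV chains, and their differences in tumours ran from -0.08 for Col4a5 to 0.33 for Col5a3.

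The main fibrillar chains were not shown to differ between the kinds of library. Col1a1 differed by 0.63 ± 0.85 (SE) on the log2(TPM + 1) scale with an adjusted limma p of 0.679, Col1a2 by 0.70 ± 0.92 (0.668) and Col3a1 by 1.14 ± 0.96 (0.469). Col12a1 differed by 0.00 ± 0.69. These chains were among those that varied most between tumours. Col16a1, Col18a1, Col4a5 and Col7a1 were called under each of the 24 alternatives tried, and the other 4 lost their call in 5 to 15 of them. Among collagen-processing genes 14 of 28 had a larger difference in the CD8 libraries and 0 a smaller one, against 11% and 7.64% of all genes. This count is not given with libraries 1 and 2 averaged. The largest were those of the prolyl hydroxylase P4ha2 at 2.39 ± 0.37, Pcolce at 2.38 ± 0.36, Loxl2 at 2.33 ± 0.50 and the isomerase Fkbp10 at 2.32 ± 0.36.

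**Figure D5:**
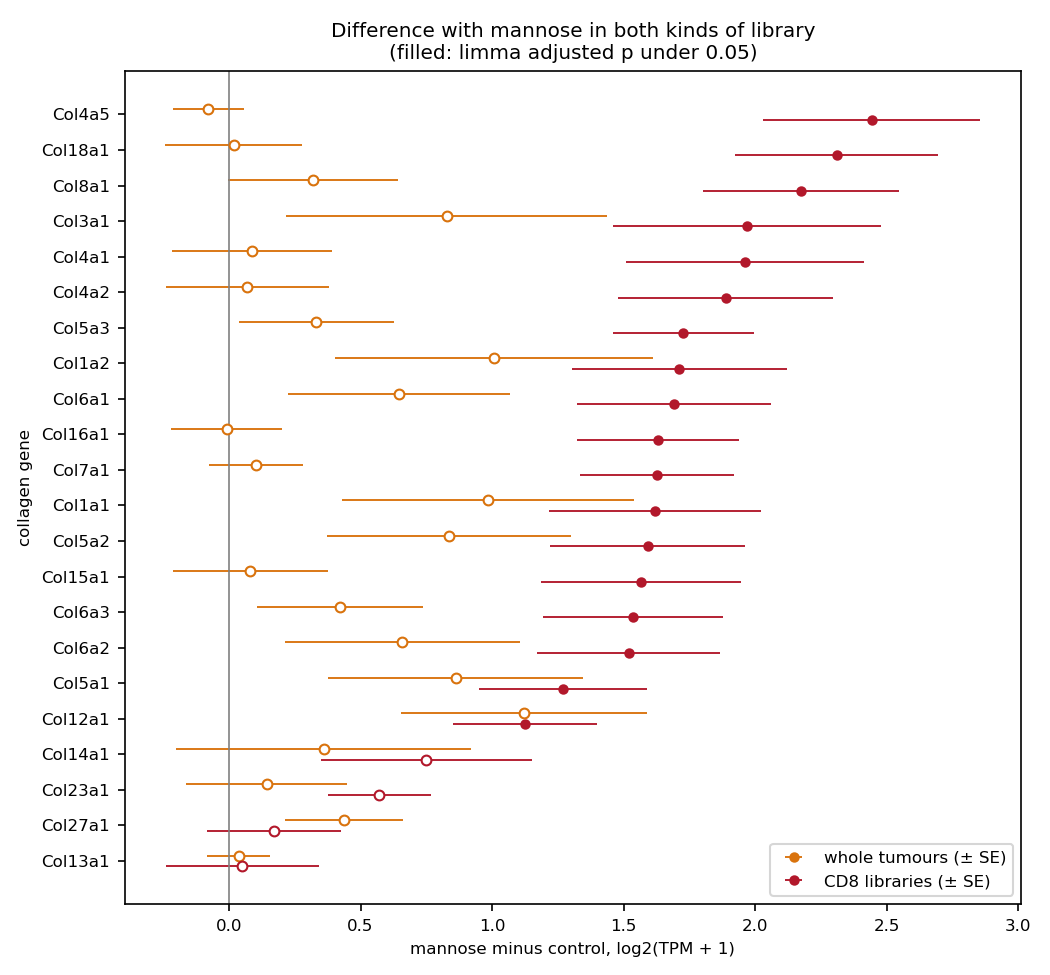
Mannose minus control on the log2(TPM + 1) scale for the 22 collagen genes tested in both kinds of library, in whole tumours (orange) and CD8 libraries (red), with limma's SE as bars; filled points passed an adjusted p of 0.05. Col4a5 and Col18a1 lie near 0 in tumours and above 2 in CD8 libraries, while Col12a1 lies at 1.12 and 1.13.

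Stretches just upstream of 5 of these genes are shown to set the fibrillar Col1a2 and Col3a1 beside 3 genes that were called in the interaction under each alternative tried. They are RefSeq sequence of the build GRCm38.p6, an older build than the one named for the expression tables, and each is the 150 bases before the annotated start on the plus strand. Capitals mark CCAAT, the letters bound by nuclear factor Y, and GGGCGG, the core letters bound by Sp1.
Col1a2, chr6:4505468-4505617: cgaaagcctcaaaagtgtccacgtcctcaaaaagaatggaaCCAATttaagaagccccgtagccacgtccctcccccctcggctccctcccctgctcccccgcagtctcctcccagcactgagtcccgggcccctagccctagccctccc
Col3a1, chr1:45311388-45311537: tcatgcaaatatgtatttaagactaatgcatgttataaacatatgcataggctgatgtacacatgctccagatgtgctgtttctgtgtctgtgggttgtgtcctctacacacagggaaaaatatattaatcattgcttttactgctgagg
Col4a5, chrX:141475269-141475418: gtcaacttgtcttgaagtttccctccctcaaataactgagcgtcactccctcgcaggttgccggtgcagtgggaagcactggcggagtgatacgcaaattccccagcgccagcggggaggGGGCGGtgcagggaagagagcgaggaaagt
Col7a1, chr9:108953436-108953585: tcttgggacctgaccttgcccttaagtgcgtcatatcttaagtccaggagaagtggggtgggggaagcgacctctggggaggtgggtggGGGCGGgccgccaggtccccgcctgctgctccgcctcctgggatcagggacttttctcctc
Col16a1, chr4:130047690-130047839: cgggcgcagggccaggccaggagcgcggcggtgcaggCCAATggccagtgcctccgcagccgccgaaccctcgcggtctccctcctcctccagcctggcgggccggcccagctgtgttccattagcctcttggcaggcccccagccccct
Matches to CCAAT (or ATTGG on the other strand) and GGGCGG (or CCGCCC) were searched in the same 150 bases of every window in the table, each motif on its own, so that matches sharing bases at a GG or CC count for both. CCAAT was found once before Col1a2 and once before Col16a1, and GGGCGG once before Col4a5 and once before Col7a1. Neither was found before Col3a1. Of the 44 members, 35 had a window, 38 windows in all. CCAAT lay in 8 of these (21.1%) against 24.5% of all 32851 windows, and GGGCGG in 19 (50%) against 28.6%. A match is a stretch of letters, not a bound site.

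Ratios between chains that assemble together were compared next, and none of the 6 tests passed. Col1a1 divided by Col1a2, the chains of type I, gave 1.42 ± 0.195 (SD, n = 5) in control and 1.40 ± 0.231 in mannose tumours (2-sided exact permutation p = 0.802). In CD8 libraries it gave 1.22 ± 0.0960 (SD, n = 3) and 1.13 ± 0.0945 (exact p = 0.3). Col4a1 divided by Col4a2 gave 1.86 ± 0.159 and 1.89 ± 0.218 in tumours (exact p = 0.865), and 1.68 ± 0.292 and 1.74 ± 0.111 in CD8 libraries (exact p = 0.8). The ratios spread by less than the levels: Col1a1 ranged 18.8-fold between tumours, and its ratio to Col1a2 only from 1.21 to 1.81. Col6a1 divided by Col6a2 gave 1.23 ± 0.0823 and 1.22 ± 0.0395 in tumours (exact p = 0.778). In CD8 libraries it gave 1.29 ± 0.0882 and 1.44 ± 0.0348, with all 3 mannose libraries above all 3 controls (exact p = 0.1, the smallest that 3 against 3 allow). After Benjamini-Hochberg adjustment over the 6 tests this last p was 0.6 and the others 0.865.

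Members outside these groups stayed low. Col2a1, the main cartilage collagen, reached at most 1.04 TPM in any library, Col10a1, known from growth plate cartilage, at most 0.17 TPM, and Col17a1, the hemidesmosome collagen of epithelium, at most 1.18 TPM. Col11a1, a fibrillar chain known from activated fibroblasts, was at most 1.19 TPM in all tumours but mannose 3, where it stood at 2.78 TPM. In CD8 libraries it did not pass 0.37 TPM.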

How the data were processed

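The authors deposited 1 table of TPM per library, made with fastp, HISAT and RSEM on the build GRCm39, per the submitters' processing notes, which give no versions. TPM was inferred as the unit because values sum to between 993815 and 997809 per library. Entries sharing a symbol were summed. Groups came from the labels. Mannose was compared with control by limma 3.58.1 in R 4.3.3, with a variance trend, on log2(TPM + 1), which understates the change of low genes. Genes needed at least 1 TPM in 5 tumours or 3 CD8 libraries (3 of all 16 for the interaction). P-values were adjusted by Benjamini-Hochberg over all genes tested, with a threshold of 0.05. The fits were tested on simulated data. Chain ratios were compared by exact permutation. Members with a mean of at least 5 TPM in a group or a call were named, the 10 highest in each kind of library with every value; of 11 pathway and marker lists, up to 4 called genes or the 2 smallest p. The members, lists and rules were chosen with earlier results of these data known. Alternatives: pseudocount 0.1, no filter, quantile and median-ratio scaling, the replicate number as a block, array weights, 1 fit of all 16 libraries, libraries left out or averaged. Figures used matplotlib 3.10.9.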

Additional observations from a re-analysis of the deposited data

Results flagged for a closer look

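Gaps within groups were examined in 46 groups of tumour values, where chance alone would mark about 1 in 20. In the mannose tumours, mannose 3 stood apart as the highest for Col1a1 (757 TPM, the next being 276), Col1a2 (593 TPM, the next 215), Col5a1 (116 TPM, the next 45.5), Col5a2 (88.6 TPM, the next 34.2), Col12a1 (114 TPM, the next 44.1) and Col14a1 (14.9 TPM, the next 4.58). The summed collagens of mannose 3 stood apart as well, at 3423 TPM with the next tumour at 1909 TPM. All 6 genes belong to the fibrillar and fibril-associated classes. In the control tumours, control 1 stood apart as the lowest for Col4a5, at 15.5 TPM with the next tumour at 20.25 TPM. The ratio of Col1a1 to Col1a2 stood apart in mannose 1, at 1.81 with the next at 1.32.

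For 8 genes the mannose difference in the CD8 libraries was larger than that in the tumours by limma's interaction test. The size of that excess on the log2(TPM + 1) scale was 2.52 for Col4a5, 2.29 for Col18a1, 1.87 for Col4a1, 1.85 for Col8a1, 1.82 for Col4a2, 1.64 for Col16a1, 1.52 for Col7a1 and 1.39 for Col5a3.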

How the results depend on the processing

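The count of 0 collagens called in tumours held under each alternative tried. In CD8 libraries 18 members were called and in the interaction 8. Fitting all 16 libraries together gave 11 calls in CD8 libraries, and averaging libraries 1 and 2 of each group gave 4 in CD8 libraries and 4 in the interaction. With these averaged, the interaction called 1047 of all 15196 genes higher and 562 lower. Leaving out 1 library gave 6 to 19 calls in CD8 libraries (6 without CD8 mannose 1 and 6 without CD8 mannose 2) and 4 to 10 in the interaction. There, 4 remained without CD8 control 3, CD8 mannose 1 or CD8 mannose 2, and 5 without tumour control 3, control 5 or mannose 5. Over all genes the main fit called 1712 of 15498 higher. Without CD8 control 3 it was 1195 of 15369, without CD8 mannose 1 1139 of 15369 and without CD8 mannose 2 1245 of 15374. Without tumour control 3 it was 1569 of 15433, without control 5 1527 of 15453 and without mannose 5 1536 of 15438. The 10 calls came without tumour control 1, where 2630 of all 15466 genes were higher. Without a filter on low values the interaction called 4, where 1500 of all 30612 genes were higher. Without tumour control 1 and mannose 3 together it called 13, where 2551 of all 15377 genes were higher and 1255 lower. In CD8 libraries 13 members were called without that filter, where 2782 of all 27302 genes rose and 1250 fell. Col1a1, Col1a2, Col3a1, Col5a1, Col12a1 and Col15a1 then lost their call, 6 of the 18, and Col2a1 gained one. All other alternatives stayed within 1.5 times the main counts.

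Deviations of same-numbered replicates from their group means correlated at -0.51 to 0.28 in tumours and at 0.0565 to 0.163 in CD8 libraries. These values do not show that the numbers pair the libraries. With 3 CD8 libraries per group they cannot exclude it there, and replicates 1 and 3 correlated best with their own number. With the replicate number as a block, 0 members were called in tumours, 18 in CD8 libraries and 8 in the interaction, of which 7 were called without the block; Col5a3 was lost and Col15a1 gained.

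In the CD8 libraries none of the 18 called members changed sign, and in the interaction none of the 8. Of the others, Col13a1 turned in 4 CD8 alternatives, Col27a1 in 3 and Col11a2 in 2, and in the interaction Col12a1 turned in 10 and Col13a1 in 7. In tumours, array weights turned Col16a1 to 0.27 from -0.01. Quantile normalization turned Col18a1 to -0.0029, and median-ratio scaling gave -0.10 for Col18a1, -0.026 for Col4a1, -0.044 for Col4a2 and -0.0073 for Col7a1. Without control 1 and mannose 3 together Col18a1 stood at -0.16, Col4a1 at -0.28, Col4a2 at -0.28 and Col8a1 at -0.058. Leaving out 1 tumour gave -0.16 to 0.12 for Col16a1, -0.16 to 0.16 for Col18a1, -0.22 to 0.24 for Col4a1, -0.21 to 0.25 for Col4a2 and -0.0037 to 0.21 for Col7a1. The log2 difference in the chain ratio ranged in tumours from -0.12 to 0.047 for Col1a1/Col1a2, from -0.042 to 0.063 for Col4a1/Col4a2 and from -0.058 to 0.0048 for Col6a1/Col6a2, and in CD8 libraries from -0.053 to 0.19 for Col4a1/Col4a2. The causes of these changes were not tested. TPM tables carry no depth, which limits what can be said of the members under 1 TPM.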
